A study of Homo sapiens with 4 samples.

Results

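The regions described here are clusters of histone H3 lysine 9 acetylation (H3K9ac) that were called in both libraries of the series but over a wider stretch in cells that expressed an shRNA against RBBP4. The rows of both lists of called regions were pooled and joined across gaps of up to 1 kb. A cluster was kept when it spanned less than 4000 bp, held regions of both libraries, held at least 3 shRBBP4 regions, and had at least 3 times as many bp covered by shRBBP4 regions as by shNT regions. The rule kept 740 of 18106 clusters. The clusters were selected on the bp covered in these same 2 libraries, so the ratio is given as a description and no test is made of it.

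The cells were T98G, an established human glioblastoma line, transduced with lentivirus that carried an RBBP4 shRNA (shRBBP4) or a control NT shRNA (shNT), both at passage 4. Chromatin immunoprecipitation followed by sequencing (ChIP-seq) with a rabbit monoclonal antibody against H3K9ac gave 1 library per shRNA, and nothing in the labels gives a replicate of either. An input library belongs to each shRNA as well, and neither was analysed here. The level of RBBP4 after the knockdown was not analysed here, and the lists of called regions hold no value that could check it.

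H3K9ac is a mark of active promoters, where it flanks the start of transcription on nucleosomes to either side of a nucleosome-poor centre. Acetyltransferases of the GCN5 and PCAF type place it and histone deacetylases remove it. RBBP4 is a WD-repeat protein that binds histones H3 and H4. It is a shared subunit of several chromatin complexes, among them the deacetylase complexes SIN3 and NuRD, the methyltransferase complex PRC2 and the chromatin assembly factor CAF-1.

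The shRBBP4 list held 39303 regions covering 11.9 Mb and the shNT list 26828 regions covering 7.89 Mb. Their depth is unknown, because the lists carry no read counts. Wherever fewer regions were called in shNT, a lower depth of that library and less of the mark cannot be told apart. Each region has a score, the authors' own value on an unstated scale, used here only as a percentile within its own list. Scores were heavily tied, with 2104 distinct values in shRBBP4 and 1301 in shNT, and ties share 1 percentile. Intervals are exact Clopper-Pearson intervals at 95%. They cover counting error only and treat clusters as independent, although all come from the same pair of libraries.

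The 740 clusters were 7.41% of the 9990 shared clusters under 4 kb and 15.1% of the 4896 among them that held at least 3 shRBBP4 regions, the set in which the ratio limit was applied. The other 4156 clusters of that set serve as the comparison below and are called the other shared clusters. With the libraries exchanged, the same rule kept 64 of 3498 clusters (1.83%), in which shNT regions covered at least 3 times as many bp as shRBBP4 regions. Both counts move with the length of the lists. When the shRBBP4 list was limited to its 26828 highest-scoring regions, 322 of 3130 clusters met the rule, and 147 of 3486 met the exchanged rule.

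In the 740 clusters, shRBBP4 regions covered 771.2 kb and shNT regions 172.2 kb. The median cluster had 975 bp under shRBBP4 regions and 188 bp under shNT regions, and the median ratio was 4.37, with quartiles at 3.51 and 5.63 and a highest value of 18.3. In the other shared clusters the medians were 1162 and 898.5 bp for shRBBP4 and shNT, with a median ratio of 1.32. The clusters thus had about as much shRBBP4 coverage as the other shared clusters and much less shNT coverage, which is what the rule selects. Their median span was 1822 bp, against 2126 bp.

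**Figure D1:**
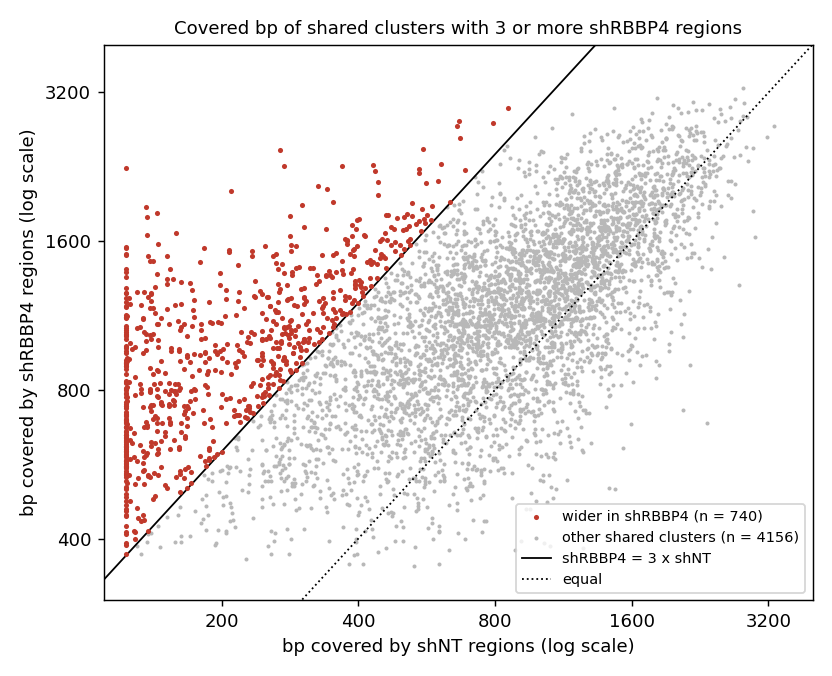
Bp covered by shRBBP4 regions (vertical) against bp covered by shNT regions (horizontal) in each of the 4896 shared clusters under 4 kb with at least 3 shRBBP4 regions, both axes on a log scale. The 740 clusters at or above the line of 3 times lie left of most others, and many form a column at 123 bp of shNT coverage, the smallest width in the shNT list.

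The shNT side of these clusters was usually a single narrow region. Of the 740 clusters, 535 held 1 shNT region (72.3%, 68.9 to 75.5), 162 held 2 and 43 held 3 or more. Of the other shared clusters, 373 of 4156 held 1 (8.97%, 8.12 to 9.89). Among the 994 shNT regions in the 740 clusters, 506 were at most 150 bp wide (50.9%, 47.7 to 54.1), against 24.3% (23.5 to 25.02) of those in the other shared clusters and 28.7% of the whole shNT list. The smallest width in the list, 123 bp, was shared by 231 of the 994 (23.2%, 20.6 to 26.0) and by 9.22% in the other shared clusters. A narrow shNT region makes a high ratio easier to reach, so these shares are tied to the rule.

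The rule requires at least 3 separate shRBBP4 regions. Of the 740 clusters, 362 held 3, 202 held 4, 114 held 5 and 62 held 6 to 10, and the median of 4 was also that of the other shared clusters. The 2869 shRBBP4 regions of the 740 clusters had a median width of 210 bp, close to the 213 bp of the whole shRBBP4 list, and the widest shRBBP4 region of a cluster had a median of 413 bp. Within a cluster the gaps between shRBBP4 regions had a median of 255.5 bp. Of these 2869 regions, 862 met one of the shNT list (30.0%, 28.4 to 31.8), against 68.8% (68.0 to 69.5) in the other shared clusters. Of the rest, 959 lay below the shNT regions (at lower coordinates), 953 above them and 95 in gaps between them. The rule selects few shNT bp beside at least 3 shRBBP4 regions, so the low share that met an shNT region is tied to it.

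The shNT signal was mostly kept within the shRBBP4 regions. Of the bp covered in shNT, 78.7% were also covered in shRBBP4, against 74.3% in the other shared clusters. Of the 994 shNT regions, 445 lay entirely inside 1 shRBBP4 region (44.8%, 41.6 to 47.9), 451 overlapped in part and 98 were not overlapped. Full containment was less frequent in the other shared clusters (26.5%, 25.8 to 27.3), where shNT regions were also wider. In 73 of the 740 clusters (9.86%, 7.81 to 12.2) no shNT region touched an shRBBP4 region at all, so that the libraries shared the cluster but no base. That was so in 26 of the 4156 other shared clusters (0.626%, 0.409 to 0.915). The shNT regions of those 73 clusters covered a median of 139 bp, and only 35 of the 73 had shRBBP4 regions on both sides.

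The added bp, those covered in shRBBP4 and not in shNT, lay to both sides of the shNT regions in about equal amounts. The shNT hull is the stretch from the first to the last base of a cluster's shNT regions. Below the hull 284.8 kb were added (44.8%), above it 279.4 kb (44.0%), and 71.5 kb (11.2%) fell in gaps inside it. Lower and higher coordinates carry no direction of transcription, since the clusters were not assigned to genes. Of the 740 clusters, 619 were extended on both sides (83.6%, 80.8 to 86.2), 61 only below the hull and 60 only above it. More bp were added below in 382 clusters and above in 357. The count on both sides fell to 75.5% when at least 50 bp were required on each side. Of the other shared clusters, 43.2% were extended on both sides (41.7 to 44.7). Their added bp also lay about equally below (28.5%) and above (27.6%), with 43.9% within the hull. The hull had a median of 188 bp in the 740 clusters and 1621 bp in the others. A narrow hull leaves more of a cluster outside it, so the high share on both sides is tied to the rule.

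Within a cluster, the side with more added bp held a median of 74.1% of the flanking bp, against 100% in the 3672 other shared clusters that had any. It held at least 90% in 193 clusters (26.1%, 22.95 to 29.4) and at most 60% in 153 (20.7%, 17.8 to 23.8). In those 3672 the shares were 59.8% (58.2 to 61.4) and 12.5% (11.5 to 13.6). The shRBBP4 regions reached a median of 674 bp below the hull and 651.5 bp above it, with highest values of 2892 and 3134 bp. In the other shared clusters the median reaches were 113 and 95.5 bp. Their hull was wider, at a median of 1621 bp against 188 bp, so these contrasts with the others are tied to the rule. Across the 740 clusters the added bp below and above the hull had a Spearman correlation of -0.52. The limit on span is shared by both sides of a cluster, so part of this is built in.

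The sides were similar whether a cluster held 1 shNT region or more, apart from the bp within the hull, which a single region cannot have. In the 535 clusters with 1 shNT region, 203.9 kb were added below it and 206.0 kb above it, and 451 were extended on both sides (84.3%). The 205 clusters with 2 or more shNT regions had 80.9 kb added below, 73.5 kb above and 71.5 kb within the hull, and 168 were extended on both sides (82.0%). Among the other shared clusters, 68.9% of those with 1 shNT region and 40.6% of those with more were extended on both sides. In the 64 clusters of the exchanged rule, the added shNT bp lay on both sides in 54 (84.4%, 73.1 to 92.2). Of those bp 50.7% lay below, 40.0% above and 9.26% within the hull.

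Position by position, shRBBP4 regions covered 78.9% of the 740 clusters at the midpoint of the strongest shNT region. Their coverage fell to 42.7% at 200 bp below it and 41.8% at 200 bp above it, and more slowly beyond. At 400 bp below this midpoint, shRBBP4 regions covered 37.2% of the 740 clusters and shNT regions 2.84%. At 400 bp above it the shares were 34.6% and 3.51%, and at 1000 bp they were 23.6% and 1.35% below, and 24.3% and 2.16% above. In the other shared clusters, 400 bp below, the shares were 43.9% in shRBBP4 and 30.9% in shNT, and 400 bp above they were 44.5% and 32.2%. At 1000 bp the other shared clusters had 25.9% and 19.3% below, and 27.3% and 18.5% above. The 740 clusters were thus covered less often in both libraries at both distances, with the larger gap in shNT. Measured from this midpoint and not from the hull, the reach of shRBBP4 coverage was not particular to the 740. Their low shNT coverage is what the rule selects.

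**Figure D2:**
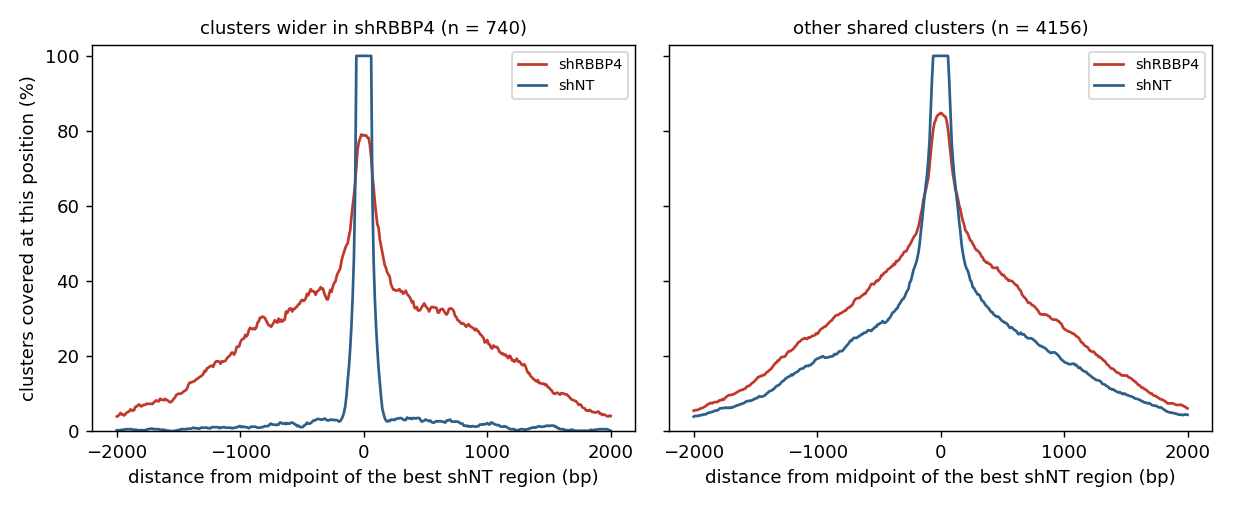
Share of clusters (vertical, percent) covered by a called region at each distance in bp from the midpoint of the cluster's highest-scoring shNT region (horizontal), for the 740 clusters (left) and the 4156 other shared clusters (right). In both groups shRBBP4 coverage spreads over more than 1 kb to both sides. In the 740 clusters shNT coverage falls to a few percent close to the midpoint, which is what the rule selects. The shNT line is 100% at the midpoint by construction.

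By score, the clusters rested on weaker shNT regions than the other shared clusters. The best shNT region of a cluster stood at a median percentile of 42.0 of the shNT list, against 80.8 in the other shared clusters. This is the highest of a median of 1 shNT region in the 740 and 3 in the others, so part of the difference is built in. Among clusters with 1 shNT region the medians were 37.7 and 62.8. Of the 740 clusters, 237 had their best shNT region in the lowest 25% of the list (32.0%, 28.7 to 35.5), and 25 had it above percentile 90 (3.38%, 2.20 to 4.95). In the other shared clusters those shares were 3.73% and 31.1%. Score and width had a Spearman correlation of 0.52 over the shRBBP4 list and 0.49 over the shNT list, and the rule uses covered bp, so score and width were not separated.

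In the shRBBP4 list the clusters also stood below the other shared clusters. Their best shRBBP4 region had a median percentile of 76.5, against 86.8, and lay above percentile 90 in 121 of 740 (16.4%, 13.8 to 19.2), against 39.3%. In 6 clusters it was in the lowest 25% of the list. The 2 lists differ in length, so percentiles of one cannot be set against those of the other.

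The share of shared clusters that met the rule fell steadily with the rank of the best shNT region. It was 84 of 117 (71.8%, 62.7 to 79.7) in the lowest 10% of the shNT list, 65 of 212 (30.7%, 24.5 to 37.3) between percentiles 40 and 50, and 25 of 1316 (1.90%, 1.23 to 2.79) above 90. By the rank of the best shRBBP4 region it stayed between 21.1% and 25.8% from percentile 20 to 80. It was 13.9% (12.1 to 15.9) between 80 and 90 and 6.90% (5.76 to 8.19) above 90. The best shNT region is the highest of unlike numbers of regions, and each shNT region adds to the bp that the rule limits. The decline by shNT rank is thus tied to the rule.

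**Figure D3:**
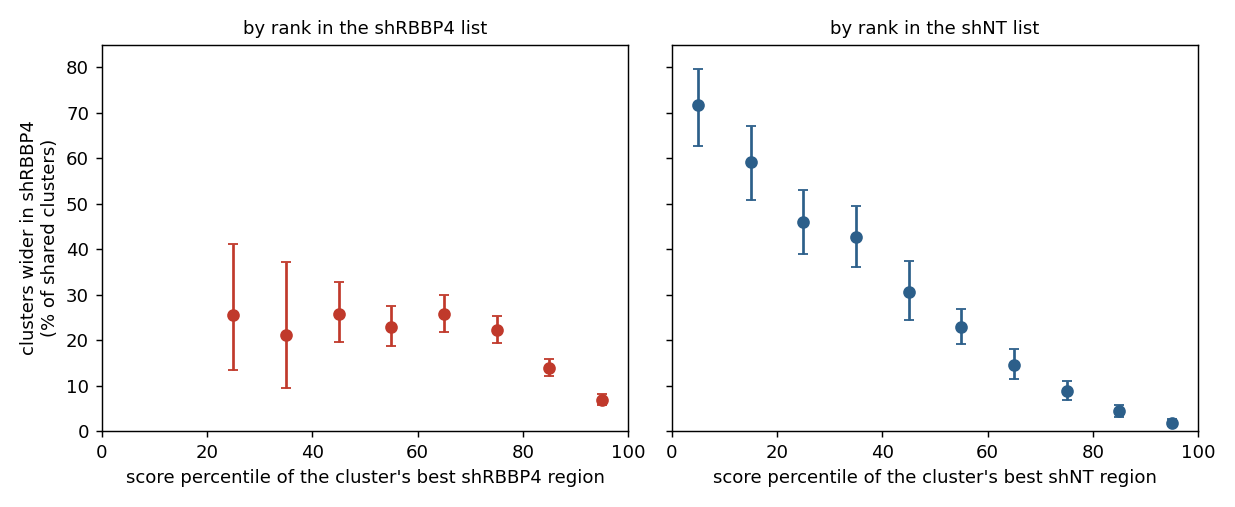
Share of the 4896 shared clusters that met the rule (vertical, percent, with exact 95% intervals) by the score percentile of the cluster's best shRBBP4 region (left) and best shNT region (right), in steps of 10 percentiles; steps with fewer than 20 clusters are not drawn. By shNT rank the share declines over the whole range, from 71.8% to 1.90%, whereas by shRBBP4 rank it is level up to percentile 80. The decline by shNT rank is tied to the rule, which limits shNT covered bp.

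Within the shRBBP4 list, the regions that overlapped shNT ranked above the added ones. In the 740 clusters, the 862 overlapping shRBBP4 regions had a median percentile of 66.3 and a median width of 296.5 bp. The regions below the hull had a median percentile of 40.5 and a width of 185 bp, and those above it 40.5 and 180 bp. Percentile 40.5 is that of the commonest score of the list, shared by 2653 regions. In the other shared clusters the median percentile was 69.7 for overlapping regions, 34.1 below the hull and 32.0 above it. The order was thus not particular to the 740. The best shRBBP4 region of a cluster lay over shNT signal in 404 of 740 (54.6%, 50.9 to 58.2), against 88.7% (87.7 to 89.7) of the other shared clusters. It lay below the hull in 162 clusters, above it in 162 and in a gap of the hull in 12. In 37 clusters (5%, 3.54 to 6.83) an shRBBP4 region that overlapped no shNT region stood above percentile 90, against 62 of 4156 other shared clusters (1.49%, 1.15 to 1.91). A region without overlap was present in 739 of the 740 but in 3065 of the 4156. The rule selects many shRBBP4 regions beside few shNT bp, so both comparisons are tied to it. Counted by region, 17 of 959 below the hull, 20 of 953 above it and 1 of 95 in its gaps stood above percentile 90. In the other shared clusters the counts were 24 of 1934, 16 of 1920 and 23 of 1174.

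The ratio varied with the coverage in both libraries. The 290 clusters with a ratio from 3 to 4 had 999.5 bp under shRBBP4 and 284.5 bp under shNT regions, as medians. The 292 with a ratio from 4 to 6 had 815.5 and 168 bp, the 138 from 6 to 10 had 1069 and 135.5 bp, and the 20 above 10 had 1504.5 and 123 bp. A single shNT region was present in 147 of the 290, 234 of the 292, 134 of the 138 and 20 of the 20. Across the 740 clusters the ratio, computed from both, had a Spearman correlation of 0.12 with shRBBP4 covered bp and -0.59 with shNT covered bp. It was -0.25 with the percentile of the best shNT region and 0.02 with that of the best shRBBP4 region. These points share both libraries and their depth.

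The highest ratio was on chromosome 15, from 42838995 to 42842225 (hg19, starts counted from 1). There 8 shRBBP4 regions covered 2253 bp and 1 shNT region covered 123 bp, a ratio of 18.3. The shRBBP4 region over it, 697 bp wide, stood at percentile 92.5, and the shNT region stood at percentile 14.7 of its list. The other 7 shRBBP4 regions ranged from 128 to 570 bp and from percentile 5.97 to 79.3, with 1242 bp added below the shNT region and 888 bp above it.

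Next came a cluster on chromosome 7, from 102512295 to 102516239, with 9 shRBBP4 regions of 121 to 320 bp covering 1879 bp. Its only shNT region, of 136 bp, lay in a gap between them and was not overlapped. The shRBBP4 regions ranged from percentile 17.7 to 69.7, and 1507 bp of the added length lay above the shNT region.

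A cluster on chromosome 15 from 85455004 to 85458127 had 4 shRBBP4 regions covering 1789 bp and 1 shNT region of 137 bp at percentile 6.08. One shRBBP4 region of 1097 bp, at percentile 90.9, contained that shNT region near its lower end, and 1383 bp were added above. The cluster on chromosome 15 from 101665557 to 101668437 was its opposite in layout, with 1410 bp added below and 274 bp above an shNT region of 144 bp. On chromosome 2, from 69240287 to 69242020, an shRBBP4 region of 1089 bp contained the shNT region of 123 bp, with 868 bp added below and 564 bp above. These 5 clusters, with ratios from 12.6 to 18.3, had best shNT regions at percentiles 6.08 to 24.8, and 3 of the 5 lie on chromosome 15.

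**Figure D4:**
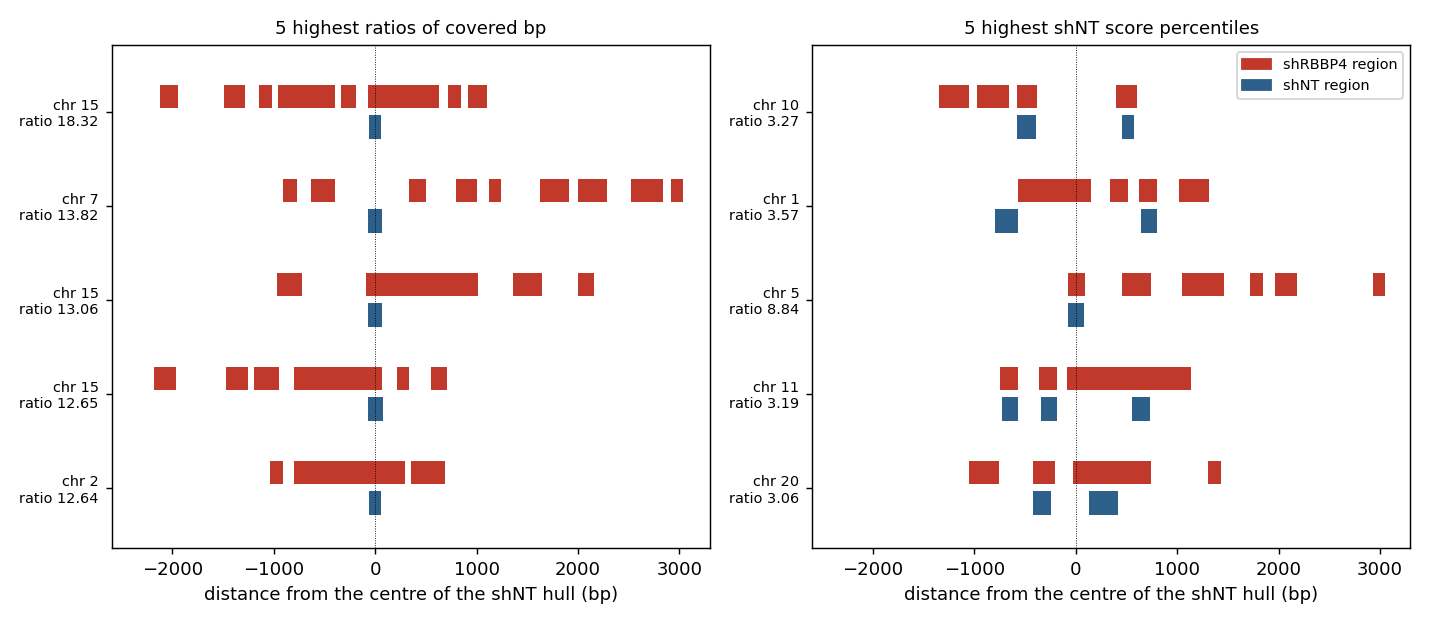
Called regions (bars, to scale) in the 5 clusters with the highest ratio of covered bp (left) and the 5 with the highest-scoring shNT region (right), by distance in bp from the centre of the shNT hull, with shRBBP4 above shNT in each pair. On the left a single shNT region of 123 to 144 bp faces 3 to 9 shRBBP4 regions; on the right 3 to 6 shRBBP4 regions face 1 to 3 shNT regions, and in each cluster an shRBBP4 region lies over the strongest shNT region.

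The most bp covered in shRBBP4 and not in shNT were on chromosome 10, from 14049078 to 14052918. There 5 shRBBP4 regions covered 2808 bp and 5 shNT regions of 123 to 156 bp covered 668 bp. Of the 2263 added bp, 2010 lay within the hull, 42 below it and 211 above it, so most of its addition filled gaps between shNT regions. Another 123 shNT bp were not covered in shRBBP4. The cluster on chromosome 5 from 60597089 to 60600487 added 2179 bp, with 2448 bp covered in shRBBP4 and 269 bp in shNT, and 1393 bp of the addition lay below the hull. The cluster on chromosome 15 with the highest ratio was the third by added bp, with 2130.

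On chromosome 7, from 92745350 to 92748691, 4 shRBBP4 regions covered 2979 bp, the most of all 740 clusters, and 4 shNT regions covered 854 bp. Its regions ranged from percentile 14.4 to 99.7 in shRBBP4 and from 34.8 to 96.7 in shNT. On chromosome 2, from 176968249 to 176971363, 5 shRBBP4 regions covered 2737 bp and 3 shNT regions 660 bp. It gained 874 bp below the hull, 1225 bp within it and none above it. An shRBBP4 region of 411 bp at its lower end overlapped no shNT region and stood at percentile 90.4.

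In clusters with a strong shNT region, the strong regions of both libraries mostly coincided. The best shRBBP4 region overlapped the best shNT region in 19 of the 25 clusters whose best shNT region stood above percentile 90 (76.0%, 54.9 to 90.6), and over those 19 the median width was 216 bp for shRBBP4 and 170 bp for shNT. Where the best shNT region stood at percentile 50 or lower, they overlapped in 167 of 427 clusters (39.1%, 34.5 to 43.9), with median widths of 342 and 152 bp where they did. In the other shared clusters the corresponding shares were 73.2% and 42.5%, so the decline was not particular to the 740. There the median widths were 482 bp for shRBBP4 and 463 bp for shNT above percentile 90, and 318 and 274.5 bp up to 50. The rule selects few shNT bp, so the narrow shNT regions of the 740 are tied to it.

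The strongest example was on chromosome 10, from 75909828 to 75911773. Its best region was 198 bp wide at percentile 99.96 in shRBBP4 and 189 bp wide at percentile 99.7 in shNT. Of 707 added bp, 616 lay below the hull, mostly in 2 shRBBP4 regions of 298 and 316 bp at percentiles 89.9 and 59.7. A further 70 lay within it and 21 above it, where an shRBBP4 region of 207 bp at percentile 36.7 lay over an shNT region of 123 bp. On chromosome 1, from 169861765 to 169863872, the best region was 182 bp in shRBBP4 and 159 bp in shNT, at percentiles 99.9 and 99.3, and 915 of 1215 added bp lay within the hull. On chromosome 5, from 173314905 to 173318037, a region of 168 bp in shRBBP4 lay over one of 152 bp in shNT, at percentiles 99.6 and 99.3. The remaining 5 shRBBP4 regions all lay on the upper side, where 1186 of the 1192 added bp lay.

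On chromosome 11, from 46638478 to 46640357, each of 3 shNT regions was overlapped, and an shRBBP4 region of 1218 bp at percentile 92.1 contained an shNT region of 178 bp at percentile 84.8. No shRBBP4 region of this cluster lacked an shNT counterpart. On chromosome 20, from 43991219 to 43993694, the best region was 217 bp in shRBBP4 and 170 bp in shNT, at percentiles 98.2 and 98.3. In these 5 clusters the strong region itself was nearly as narrow in shRBBP4 as in shNT, and the added bp came from weaker regions around it or from wider calls next to it.

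A different layout was seen on chromosome 14, from 50328071 to 50330413. The strong shRBBP4 region, 765 bp wide at percentile 99.4, lay at the lower end and overlapped no shNT region. The only shNT region, of 264 bp at percentile 24.8, lay at the upper end under an shRBBP4 region of 557 bp at percentile 76.5. All 1257 added bp were below the shNT region.

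Just inside the ratio limit were those on chromosome 3 from 43913616 to 43915257, with 600 bp in shRBBP4 and 200 bp in shNT, on chromosome 13 from 30421517 to 30424221, with 1152 and 384 bp, and on chromosome 22 from 50355289 to 50357712, with 415 and 138 bp. Their best shNT regions stood at percentiles 12.2, 42.0 and 29.4, and in those on chromosomes 3 and 22 no shNT region was overlapped. Just outside were those on chromosome 20 from 2488147 to 2490445, with 1877 bp in shRBBP4 and 626 bp in shNT, on chromosome 10 from 77160094 to 77163094, with 1199 and 400 bp, and on chromosome 3 from 132377760 to 132380423, with 2161 and 721 bp. Their best shNT regions stood higher, at percentiles 97.5, 67.8 and 74.2, and each shNT region was overlapped.

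The clusters were unequally spread over the chromosomes. Chromosome 14 had the highest share, 36 of its 114 shared clusters (31.6%, 23.2 to 40.9), against 14.7% on all other chromosomes. Chromosome 10 followed with 51 of 190 (26.8%, 20.7 to 33.7), against 14.6%. The lowest shares were those of chromosome 16, with 12 of 198 (6.06%, 3.17 to 10.3), and chromosome 7, with 14 of 229 (6.11%, 3.38 to 10.0). Of 23 chromosomes, 5 had an interval above the share of the others (10, 14, 15, 19 and 20), 4 had one below it (7, 8, 12 and 16) and 14 included it. The lower limits of chromosomes 15, 19 and 20 were 15.5, 15.3 and 15.4%, close to the share of the others. Over 10 alternative settings, chromosome 14 was above in 10, chromosome 10 in 9, 15 in 7, 19 in 6 and 20 in 5. Chromosome 16 was below in 10, 7 in 9 and 8 in 8, but chromosome 12 in only 1, while chromosome 11 was below in 6. In lists of equal length 10, 14 and 20 were above and 7 and 16 below.

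**Figure D5:**
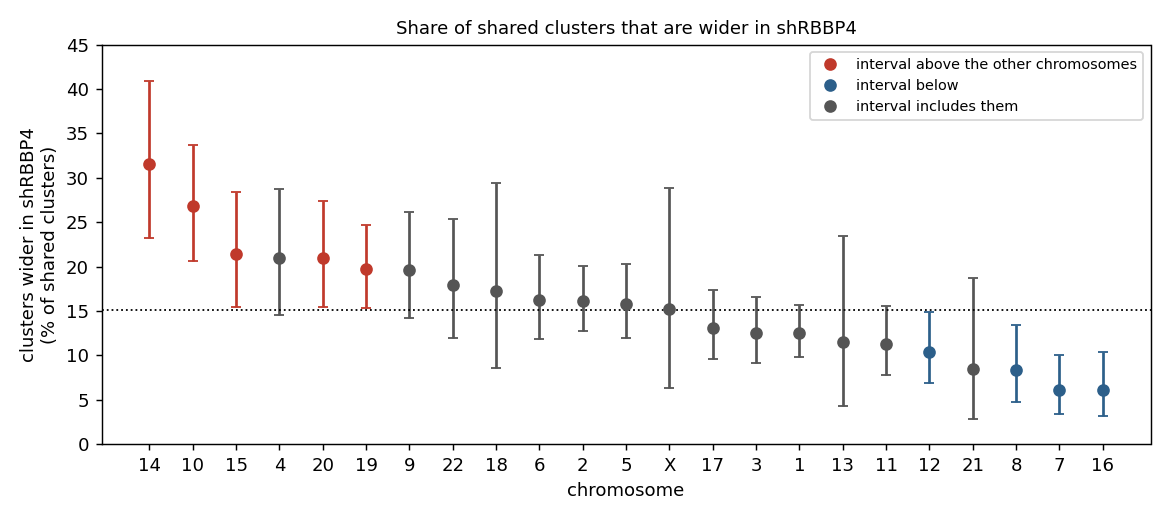
Share of each chromosome's shared clusters that met the rule (points, percent) with exact 95% intervals (bars), ordered from highest to lowest, and the share over all chromosomes (dotted line). Chromosomes 14 and 10 stand highest at 31.6% and 26.8% and chromosomes 7 and 16 lowest at 6.11% and 6.06%, while most intervals include the share of the other chromosomes.

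The order of the chromosomes was also seen in regions outside the 740 clusters. With the clusters' own regions left out, chromosome 14 had 860 shRBBP4 and 448 shNT regions, a ratio of 1.92, and chromosome 10 had 1395 and 769, a ratio of 1.81. Chromosome 7 had 1763 and 1640, a ratio of 1.07, and chromosome 16 had 1516 and 1318, a ratio of 1.15. Over 23 chromosomes, the share of clusters that met the rule and the ratio of all remaining regions had a Spearman correlation of 0.84. With the median ratio of covered bp in the other shared clusters it was 0.87. That median was 1.68 on chromosome 14 and 0.99 on chromosome 7. These points share both libraries and their depth, and chromosome copy number was not tested.

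For the exchanged rule, which kept 1.83% over all chromosomes, chromosome 13 had 9 of its 55 clusters (16.4%) and chromosome X had 3 of 36 (8.33%). Chromosome 7 had 16 of 212 (7.55%) and chromosome 8 had 10 of 170 (5.88%). Chromosomes 2, 4, 6, 10, 14, 17, 18, 19, 20 and 22 held none. At so low a share over all chromosomes, a count of 0 says little about a single chromosome. Chromosome 15, high under the first rule, had 6 of 119 (5.04%), and chromosome 16, low under it, had 2 of 177 (1.13%). Over 23 chromosomes the shares under the 2 rules had a Spearman correlation of -0.62, computed from the same libraries.

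Chromosomes also differed once the rank of their shNT regions was taken into account. If each step of 10 percentiles of the best shNT region had the same share of clusters on every chromosome, 24.2 clusters would lie on chromosome 20, where 40 were found, a ratio of 1.65. On chromosome 14 the figures were 36 found and 24.5 expected, a ratio of 1.47. On chromosome 22, whose interval above included the share of the others, they were 25 and 18.5, a ratio of 1.35. On chromosome 10 they were 51 and 39.5, a ratio of 1.29. Chromosome 7 had 14 found and 24.3 expected, chromosome 16 had 12 and 20.1, and chromosome 12 had 26 and 37.9. No interval is given for these ratios, and their order differs from that of the shares. The count on chromosome 15 was closer, with 36 found and 31.8 expected.

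On chromosome 20 all 40 clusters were extended on both sides, against 83.6% of the 740 (exact 95% interval for 40 of 40, 91.2% to 100%). It was singled out after its values had been seen, and it is 1 of 23 chromosomes. Its clusters had best shRBBP4 regions at a median percentile of 87.1, above the 76.5 of all 740. Elsewhere, for chromosomes with at least 20 clusters, the share extended on both sides ranged from 69.0% on chromosome 4 to 88.9% on chromosome 15.

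Most clusters were the only ones in their neighbourhood. They fell in 543 windows of 1 Mb, of which 394 held 1, 108 held 2, 35 held 3, 5 held 4 and 1 held 5. The window from 12 to 13 Mb on chromosome 11 held 5 of its 9 shared clusters. The first, from 12029106 to 12030573, had 1039 bp covered in shRBBP4 and 136 bp in shNT. The next, from 12065011 to 12066453, had 710 and 215 bp, that from 12087242 to 12089573 had 930 and 188 bp, that from 12433631 to 12435668 had 825 and 123 bp, and that from 12713970 to 12716857 had 1680 and 549 bp. In 4 of these 5 the added bp lay on both sides, and in the one from 12433631 all 825 lay below an shNT region that was not overlapped. Their best shNT regions stood at percentiles 7.37 to 57.5 and their best shRBBP4 regions at 63.9 to 74.3.

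Of the 5 windows with 4 clusters, the first 2 in genome order are described, and the other three were 36 to 37 Mb on chromosome 19, with 4 of 12, and 30 to 31 and 46 to 47 Mb on chromosome 22, with 4 of 11 and 4 of 8. That from 75 to 76 Mb on chromosome 10 held 4 of its 10 shared clusters, among them the one with the strongest shNT region described above. The other three had 853 bp covered in shRBBP4 and 172 bp in shNT (from 75172014 to 75173744), 1147 and 318 bp (from 75254096 to 75256389) and 1311 and 266 bp (from 75757342 to 75760006). Each was extended on both sides. The window from 2 to 3 Mb on chromosome 19 also held 4 of 10. Those from 2095200 to 2096551 and from 2542969 to 2544303 were extended on both sides, with 741 and 872 bp covered in shRBBP4 and 240 and 187 bp in shNT. Those from 2476184 to 2478567 and from 2944419 to 2945779 were extended only above, by 784 and 580 bp. In the block of chromosome 15 from 25 to 35 Mb, 2 of 5 shared clusters met the rule.

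The nearest cluster on the chromosome lay at a median distance of 13.3 kb, against 23.5 kb for the other shared clusters. It lay within 5 kb for 208 of 740 (28.1%, 24.9 to 31.5), against 19.0% (17.8 to 20.3). That neighbour held shRBBP4 regions alone for 318 of 740 (43.0%, 39.4 to 46.6), against 1243 of 4156 (29.9%, 28.5 to 31.3). Weighting the other shared clusters to the chromosomes of the 740 gave 31.2%. Neighbours with regions of both libraries were found for 380 of 740 (51.4%, 47.7 to 55.0), against 62.9% (61.4 to 64.3) for the other shared clusters. Neighbours with shNT regions alone were found for 42 (5.68%, 4.12 to 7.59), against 7.22%. The nearest cluster was itself one of the 740 in 35 cases (4.73%, 3.32 to 6.52), against 4.09% (3.51 to 4.74) for the other shared clusters.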

How the data were processed

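Regions were called separately in each H3K9ac library. Per the file headers, each track name contains macs2 and PE. The submitters' processing notes list BWA, Picard, SICER and bcl2fastq 2.15.0, as well as hg19 and GRCh37, and assign no step to any of them. The threshold and any use of the input are not stated there. The deposited score of each region is the authors' value on an unstated scale and was turned into a percentile within its list, ties at their mean rank. Depth is unknown, so a longer list may reflect deeper sequencing. Pooled regions were joined where gaps were at most 1 kb, and measured as described above. With 1 library per group there is no test and no p-value. The joining and side functions were tested on simulated lists. Clusters are named by a rule: the 5 highest by ratio, added bp, and best shRBBP4 and shNT percentile, those nearest the limit, and the 3 windows of 1 Mb with most clusters, ties going to the lower chromosome and position. Members and rules were chosen with earlier results of these data known. No annotation of hg19 was used, so clusters carry positions and no gene names. Alternatives changed the gap, ratio, number of regions, span, score limit and list length. Software was Python 3.11.15 with scipy 1.17.1, pandas 2.3.3, numpy 2.4.6 and matplotlib 3.10.9.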

Additional observations from a re-analysis of the deposited data

How the results depend on the processing

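No paired analysis was possible because there is only 1 library for each shRNA. Of 106 values recomputed under the alternatives, 59 stayed within the main value's interval (counts within 1.5 times) and 47 did not. For the shares of added bp, the interval used was that of an equal share of clusters. Bp are not counts of clusters, so it does not measure the spread of those shares. Whether a share of added bp stayed or moved is therefore only a rough label, and both totals include such labels.

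The count of clusters was 1426 with a ratio of at least 2, 262 with at least 5, 378 with at least 4 shRBBP4 regions, 303 in the higher-scoring 50% of each list and 322 in lists of equal length; fewer regions or a stricter limit lower it by construction. The exchanged rule, recomputed by a choice that was made after seeing these data, kept 147 clusters in lists of equal length, against 64. The share of shared clusters was 13.7% with a gap of 500 bp, 29.1% and 5.35% with ratios of at least 2 and 5, 13.9% with at least 2 shRBBP4 regions, 16.9% in the higher-scoring 50%, 10.3% in lists of equal length and 7.41% of all shared clusters under 4 kb.

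The median ratio was 3.06 and 6.37 with ratios of at least 2 and 5, 4.18 with at least 2 shRBBP4 regions and 4.52 in the higher-scoring 50%. With a ratio of at least 2, added bp were 40.4% below, 40.3% above and 19.3% within the hull, and 77.6% of clusters were extended on both sides. With at least 5, 51.7% lay below and 3.01% within, and 87.4% were extended on both sides. The part within the hull was 14.8% with at least 4 shRBBP4 regions, 13.9% with no span limit and 8.74% in the higher-scoring 50%. Split at the midpoint of the best shNT region, 49.7% lay below and 50.3% above. Extension on both sides was 80.5% with at least 2 shRBBP4 regions and 75.5% with at least 50 bp on a side.

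The median percentile of the best shRBBP4 region was 77.6 with a gap of 500 bp, 78.7 with a ratio of at least 2 and with at least 4 shRBBP4 regions, 88.2 in the higher-scoring 50% and 82.1 in lists of equal length. That of the best shNT region was 51.2 and 31.7 with ratios of at least 2 and 5, 44.0 with at least 4 shRBBP4 regions, 76.2 in the higher-scoring 50% and 45.8 in lists of equal length. Chromosomes above the others numbered 3 with a gap of 500 bp, 3 with a ratio of at least 5, 2 in the higher-scoring 50% (14 and 15) and 3 in lists of equal length. Chromosomes below numbered 2 with a ratio of at least 5 (11 and 16) and 2 in lists of equal length. Chromosome 14 was above the others under each setting. With a gap of 2 kb the number above was again 5, with chromosome 4 in place of 20. Beyond the construction named, the cause was not tested.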
